A study of Mus musculus with 2 samples.

Results

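The cytosolic ribosomal protein genes were described in single hematopoietic stem and progenitor cells of mouse bone marrow. Their members were chosen by symbol: Rpl or Rps followed by a digit, together with Rplp0, Rplp1, Rplp2 and Rpsa, without symbols that hold -ps and without the Rps6k kinases. This rule took 86 of the 31053 genes in the matrix, 52 with a large-subunit and 34 with a small-subunit symbol. It left out 9 -ps symbols, which held 0.0392% of the UMIs, and 10 Rps6k symbols. One gene caught by the rule, Rps19bp1, encodes a binding protein of Rps19 and not a protein of the ribosome.

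The cells were LSK cells, which lack lineage markers and carry Sca-1 and c-Kit, of C57BL/6JRj mice, sorted from young animals of 3 to 5 months and old animals of 22 to 28 months, with 1 CITE-seq library per age made from pooled mice. No transgene or treatment was given for either group. CITE-seq counts the RNA of a cell together with antibody tags on its surface, here for CD150, CD48 and CLCA3A1. The barcode suffix, 1 or 2, separates the libraries, but the sources used here do not tie a suffix to an age, so no comparison of ages was made and the values of both suffixes stand side by side. A unique molecular identifier (UMI) marks 1 captured RNA molecule. Cells of 1 library are not replicates, and gates can be compared within only 2 libraries, where an exact two-sided sign-flip permutation test cannot go below p = 0.5. No test was run, each gate comparison is given within each suffix, and every interval is a 95% interval for counting error only.

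Of 4688 cells, 4068 had under 10% mitochondrial (mt-) UMIs and over 1500 genes and were kept, 1524 with suffix 1 and 2544 with suffix 2. Tag values were present for 3986 of them, and no barcode occurred with both suffixes. The kept cells held 71367333 UMIs, with a median of 14894 per cell and 9907 and 29563 at the 10th and 90th percentiles. The 8 stem cell markers Procr, Hlf, Mecom, Fgd5, Slamf1, Ly6a, Kit and Vwf all had UMIs in each gate and suffix. As in flow cytometry with the SLAM markers CD150 and CD48, cells were divided into 4 gates by the CD150 tag, at its 75th percentile, and the CD48 tag, at its 25th percentile, within each suffix. The gates keep the names of their tags, and since the limits are percentiles, a gate does not hold the same tag counts in both suffixes.

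Each ribosome is built from a small subunit, which reads the mRNA, and a large subunit, which joins amino acids, and cells make their proteins in equal numbers. The mRNAs of ribosomal proteins are among the most abundant of a cell and carry a 5′ terminal oligopyrimidine (TOP) tract, a run of C and T that begins with a C at the transcription start, through which mTORC1 and Larp1 control their translation. Hematopoietic stem cells are known for a low rate of protein synthesis compared with progenitors, and loss of 1 copy of several ribosomal protein genes causes anemia and marrow failure. The mRNA level measured here is therefore a different quantity from the number of ribosomes or the rate of translation.

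The 86 members lay on 19 chromosomes, 4 of them on X, and held 28.8% of all UMIs of the kept cells. Levels are given as counts per 1000000 UMIs (CPM) of a gate. These count 3′ ends and are not divided by transcript length. At least 10 CPM were reached by 83 members, and 68 exceeded 1000 CPM. Below 10 CPM were Rpl3l, a muscle paralog, and Rpl10l and Rpl39l, known from the testis. Some core proteins with a single main gene also had low counts, among them Rps27 at 43.2 CPM, Rps12 at 56.9, Rpl10 at 33.7 and Rpl27 at 29.7 in CD150-high CD48-low and CD150-low CD48-high cells together.

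Their low values were set beside the sequence that a 3′ assay reads. The last 300 bases of the longest protein-coding transcript of each gene were cut into 32-base stretches. Of these, 100% in Rps27 and Rpl10, 94.8% in Rps12 and 84.4% in Rpl27 also occurred in a transcript of another gene. The values were 0% in Rpl21 and 1.49% in Rps27l. Ends of shorter transcripts were not examined, and the one used for Rpl21 had 1856 bases, so its 0% may not hold for the ends read here. Counting reads that fit 1 gene alone leaves genes with shared stretches with fewer reads. The share did not order the genes by level, because Rpl29 and Rpl36a, with 100% of stretches shared, and Rpl36, with 96.3%, had far higher counts, 1383 CPM for Rpl29. Whether shared sequence set these levels was not tested, and the levels of Rps27, Rps27rt, Rps12, Rpl10 and Rpl27 are uncertain.

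The start of the transcript is shown for members on which the results turn. Each sequence is 30 bases from 5 before to 25 after the RefSeq transcription start (GRCm38.p6), 5′ to 3′, and capitals mark runs of at least 5 C or T that begin with C.
Rps6 (chr4:86857343-86857372, minus strand): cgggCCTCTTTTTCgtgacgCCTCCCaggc
Rpl38 (chr11:114668575-114668604, plus strand): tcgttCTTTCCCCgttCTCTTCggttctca
Rps21 (chr2:180257374-180257403, plus strand): ccgCCCTCCTgcccaatagtgctgcggagg
Rps12 (chr10:23787185-23787214, minus strand): cggccaccgccggCCTTTTCCCCTgccgcc
Rps27 (chr3:90213624-90213653, minus strand): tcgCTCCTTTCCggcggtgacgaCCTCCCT
Rps27rt (chr9:114982715-114982744, minus strand): ccttgCTTTCCggcggtgacgaCCTCCCTa
Rps27l (chr9:66946081-66946110, plus strand): ccgccgCCTCTatcccggaagttgctgagg
RefSeq gives Rps21 and Rps27l each a further start, at chr2:180257444-180257473 and chr9:66946408-66946437, whose longest such runs were 4 bases for Rps21 and 5 for Rps27l. Rps6, the substrate of the S6 kinases, and Rpl38 show the long pyrimidine runs typical of a TOP mRNA. Rps27 and the retrogene Rps27rt shared a run of 38 identical bases near their starts, whereas the longest run that Rps27 shared with Rps27l was 5 bases.

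Start sequences from the RefSeq table were used for 66 members, with entries on chromosome 18 left out. In the window from 10 bases before to 50 after the start, on the transcribed strand only, 60 of these 66 genes (90.9%) held a C/T run of at least 5 bases, against 61.4% of 6693 other genes at 10 CPM or more. A run of at least 8 bases was found in 45 (68.2%) against 18.4%, the letters CTTTC in 29 (43.9%) against 6.98% and the letters CTTCC in 24 (36.4%) against 17.9%. Both letter strings can lie inside a longer run. The window describes the annotated start and does not show which start was used in these cells.

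The ribosomal protein share of UMIs was highest in the CD150-high CD48-low gate, where flow cytometry places stem cells, and lowest in the CD150-low CD48-high gate, where it places most multipotent progenitors. In CD150-high CD48-low cells it was 30.3% with suffix 1 (172 cells) and 33.0% with suffix 2 (383 cells). In CD150-low CD48-low cells it was 29.0% (204 cells) and 31.8% (250 cells). CD150-high CD48-high cells had 27.3% (209 cells) and 31.0% (241 cells), and CD150-low CD48-high cells 27.7% (912 cells) and 28.3% (1615 cells). With suffix 2 the 4 gates stood in the same order as when both suffixes were summed. With suffix 1 the CD150-high CD48-high gate was the lowest.

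Over both suffixes the share was 32.2% (32.17 to 32.24) in CD150-high CD48-low and 28.1% (28.05 to 28.07) in CD150-low CD48-high cells, a ratio of 1.15 (1.146 to 1.149). The ratio was 1.095 with suffix 1 and 1.17 with suffix 2, or 2.64 and 4.73 percentage points. Counting error was small beside the spread between cells, which is the larger limit on these values. In CD150-high CD48-low cells with suffix 1 the share of single cells had an SD of 3.05 points around a counting SD of 0.419, and in CD150-low CD48-high cells with suffix 2 an SD of 3.44 around 0.356. Cells of both gates overlapped widely, with 26.8, 30.6 and 34.3% at the 10th percentile, median and 90th percentile of the first with suffix 1 and 24.5, 28.3 and 31.8% in the second. With suffix 2 these values were 29.0, 33.0 and 36.5% against 25.3, 29.1 and 32.8%.

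**Figure D1:**
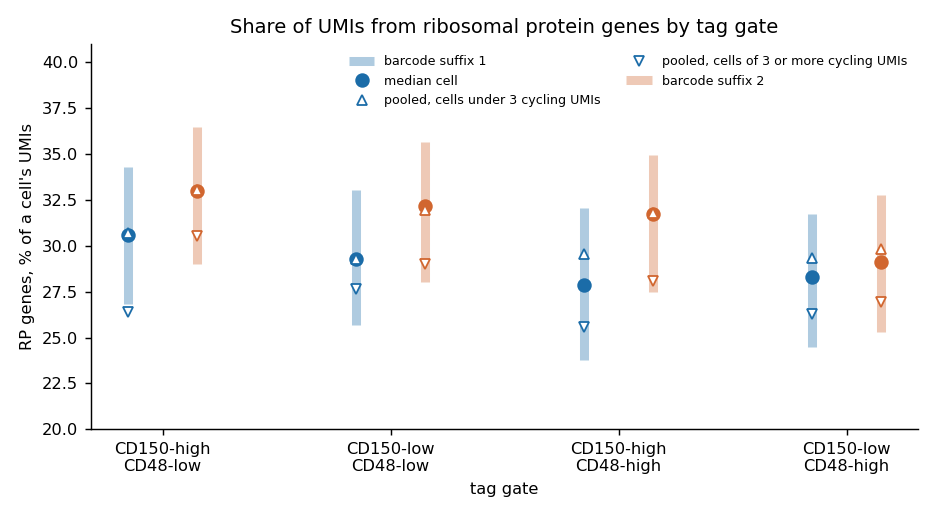
Ribosomal protein share of a cell's UMIs (%, axis from 20) in the 4 tag gates. Circles are the median cell and bars the 10th to 90th percentile of cells for each suffix, and triangles are summed shares of cells under 3 (upward) and of 3 or more (downward) cycling UMIs. The median cell was highest in the CD150-high CD48-low gate, 30.6 and 33.0%, the bars of all gates overlapped, and cycling cells lay below the others in each gate.

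A higher share did not mean more ribosomal protein mRNA per cell. CD150-high CD48-low cells had a median of 4303 ribosomal protein UMIs, fewer than the 4923 of CD150-low CD48-high cells, a ratio of 0.874. Their UMIs of all genes other than mt- and ribosomal protein genes were fewer still, 8097 against 10485, a ratio of 0.772. CD150-low CD48-low cells had 3573.5 and 7195, and CD150-high CD48-high cells 5237 and 10454. The UMIs per cell also depend on how well a droplet captured RNA, which these data cannot separate from cell size.

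Mitochondrial UMIs and cycling cells differed between the gates as well. The mt- share was 6.65% in CD150-high CD48-low, 6.53% in CD150-low CD48-low, 6.22% in CD150-high CD48-high and 5.78% in CD150-low CD48-high cells. Cells with at least 3 UMIs of the cycling genes Mki67, Top2a, Ube2c, Birc5, Cdk1, Ccnb1 and Ccnb2 made up 6.40 and 1.31% (suffix 1 and 2) of CD150-high CD48-low but 38.7 and 38.6% of CD150-low CD48-high cells. Such cells had a lower ribosomal protein share than the others of their gate, for example 26.3 and 26.9% against 29.4 and 29.8% in CD150-low CD48-high cells.

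Without the cycling cells the difference between the gates was smaller. The share was 30.7 and 33.0% in CD150-high CD48-low against 29.4 and 29.8% in CD150-low CD48-high cells, ratios of 1.05 and 1.11. For CD150-low CD48-low over CD150-low CD48-high cells the ratios were 1.05 and 1.12 with all cells and 0.997 and 1.07 without cycling cells. Suffix 1 therefore showed almost the same share in these gates once cycling cells were left out.

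Over the CD48 tag alone, in equal bins of cells within a suffix, the share was highest in the bin with the least tag and lowest in the bin with the most. With suffix 2 the 5 bins had 32.6, 31.0, 29.2, 28.3 and 27.7%, from low to high CD48. With suffix 1 they had 30.1, 28.6, 28.0, 28.0 and 26.6%. Without cycling cells most of the difference lay between the lowest bins and the rest, with 30.4, 29.3, 29.3, 29.5 and 28.9% for suffix 1 and 32.6, 31.6, 29.9, 29.7 and 30.0% for suffix 2.

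The CD150 tag showed a different course. With suffix 1 the bins ran 28.1, 27.9, 27.8, 27.6 and 28.5%, within 1 point of each other. With suffix 2 they ran 28.2, 28.2, 28.4, 30.3 and 32.4%. Only the upper bins of suffix 2 stood out. Without cycling cells the bins had 29.4, 29.2, 29.6, 29.1 and 30.3% with suffix 1 and 29.3, 29.5, 30.6, 31.4 and 32.7% with suffix 2. The suffixes also differed in the tags themselves, with a median of 228 CD150 tags in the highest bin of suffix 1 and 866 in that of suffix 2, and 119 against 18 CD48 tags in the lowest bin.

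**Figure D2:**
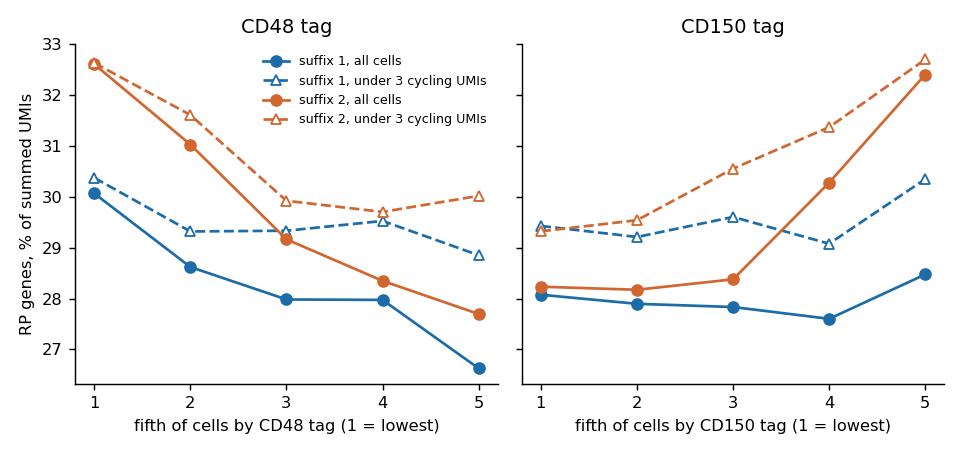
Ribosomal protein share of UMIs (%) over 5 equal bins of the CD48 and CD150 tags, for each suffix, with all cells and without cycling cells. With all cells, the share was 32.6% in the lowest and 27.7% in the highest CD48 bin of suffix 2, and between 27.6 and 28.5% over the CD150 bins of suffix 1.

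Large- and small-subunit genes varied together from cell to cell. Within the 8 combinations of gate and suffix, the share of the large-subunit genes and that of the small-subunit genes had a Pearson r of 0.925 to 0.942 over 172 to 1615 cells, where both shares come from the same cells and have the same total. Their summed UMIs kept a ratio of 1.12 to 1.17 in all 8. Within CD150-high CD48-low cells, the CLCA3A1 tag split the share in opposite ways: cells above the median tag had 30.7% against 29.9% with suffix 1 and 32.8% against 33.3% with suffix 2. Low shares were found in 12 cells with over 5% immunoglobulin UMIs, 8.08% in all, of which 11 lay in the CD150-low CD48-high gate. The 620 cells removed by the filter had 17.2%, and the 549 among them with a high mt- share 16.7%.

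At the level of single genes, a small excess spread over most members rather than a large one in a few. CPM in CD150-high CD48-low cells was divided by CPM in CD150-low CD48-high cells in each suffix. The ratio was over 1 in each suffix for 64 of 83 members (77.1%), compared with 32.1% of all 8409 genes at 10 CPM or more, and under 1 in each suffix for 9 (10.8%), compared with 47.1%. The other 10 went opposite ways. Of the pooled ratios, 69 had an interval above 1, 6 below 1 and 8 across it. The median ratio was 1.13, with 0.990 and 1.33 at the 10th and 90th percentiles.

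On the log2 scale, the median difference was 0.18 for the members, 0.19 for large-subunit and 0.17 for small-subunit genes, beside −0.10 for all genes tested. It was 0.12 with suffix 1 and 0.20 with suffix 2. When UMIs were scaled to those of genes other than mt- and ribosomal protein genes, the median of all genes moved by 0.11 to 0.02 and that of the members to 0.29, so the distance of 0.27 between both stayed. With that scaling, the share of higher among all called genes was 52.0% instead of 37.9%.

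Large differences were rarer among the members than among all genes, though for higher levels this depended on the gates and the scaling. A level at least 25% higher in each suffix was reached by 5 of 83 members (6.02%; background 11.8%), namely Rps27rt, Rps27, Rpl21, Rps21 and Rps12, and a level of at most 0.8 times in each suffix by Rps27l alone (1.205%; background 19.3%). Members that met either limit are named called higher or lower. With a ratio of 1.1 as the limit there were 34 higher (40.96%; background 21.5%) and 2 lower members (2.41%; background 33.6%). The share of members called higher was above that of all genes with 90th and 10th percentile gates (14.5 against 10.97%), relative to UMIs of genes other than mt- and ribosomal protein genes (19.3 against 16.0%) and in suffix 2 alone (25.3 against 18.0%). The counts also depended on the cells. Without cycling cells, only Rpl21 and Rps12 were called higher (2.41%; background 8.78%) and none lower (background 11.7%). A filter of over 2500 genes and under 5% mt- UMIs left 20 and 37 CD150-high CD48-low cells. With it, no member was called higher (background 14.9%) or lower (background 10.4%), and 25 had a ratio over 1 in each suffix, a count not made for all genes.

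**Figure D3:**
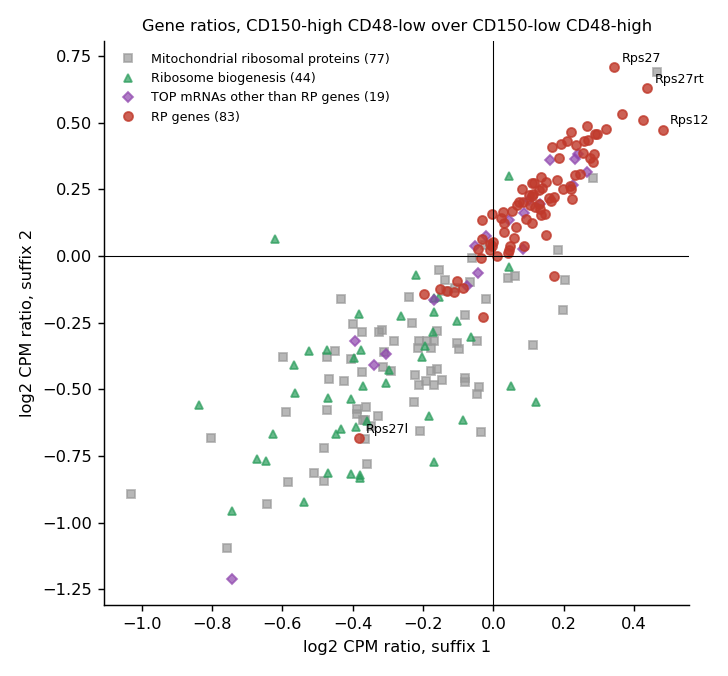
Log2 CPM ratio of CD150-high CD48-low over CD150-low CD48-high cells, suffix 1 on the x axis and suffix 2 on the y axis, for 83 ribosomal protein genes, 77 mitochondrial ribosomal protein genes, 44 ribosome biogenesis genes and 19 other TOP mRNAs. Most ribosomal protein genes lie above 0 on both axes, most biogenesis and mitochondrial ribosomal protein genes below 0 on both, and Rps27l stands apart from its group at −0.38 and −0.68.

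Among the members with the highest ratios, Rpl21 and Rps21 combined a high level with a clear separation. Rpl21, a protein of the large subunit, had 3125 and 4017 CPM (suffix 1 and 2) in CD150-high CD48-low, 2777 and 3779 in CD150-low CD48-low, 2523 and 3711 in CD150-high CD48-high, and 2328 and 2821 in CD150-low CD48-high cells. Its ratio of the first over the last gate was 1.42 (1.40 to 1.44). Within each suffix the gates stood in the same order, but suffix 1 of the highest gate lay below suffix 2 of the next gates. Rps21, of the small subunit, had 4046 CPM in CD150-high CD48-low and 2794 in CD150-low CD48-high cells with suffix 2, a ratio of 1.45. With suffix 1 the ratio was 1.29.

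Rpl37a and Rpl23 of the large subunit had ratios of 1.249 and 1.39 (Rpl37a) and 1.22 and 1.37 (Rpl23) for suffix 1 and 2. Rps12 had 73.7 and 75.9 CPM in CD150-high CD48-low cells and 52.8 and 54.7 in CD150-low CD48-high cells, a ratio of 1.39 (1.27 to 1.53) that hardly differed between the suffixes. With the stricter cell filter it was 0.848. Rpl10, which joins the large subunit in a late step of its maturation, had a ratio of 1.34 (1.19 to 1.51) at 38.6 and 45.2 against 32.1 and 32.2 CPM.

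The low end held several members of high level with small differences. Rpsa, a small-subunit protein also known as the laminin receptor, had 6429 and 6362 CPM in CD150-high CD48-low and 6822 and 6905 in CD150-low CD48-high cells, a ratio of 0.928. Rps2 had a ratio of 0.931, Rpl4 of 0.935 and Rpl41, the smallest protein of the ribosome, of 0.918. The ratios of Rpl27, 0.9003 (0.774 to 1.04), and Rps19bp1, 0.912 (0.812 to 1.02), did not differ from 1 beyond counting error.

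**Figure D4:**
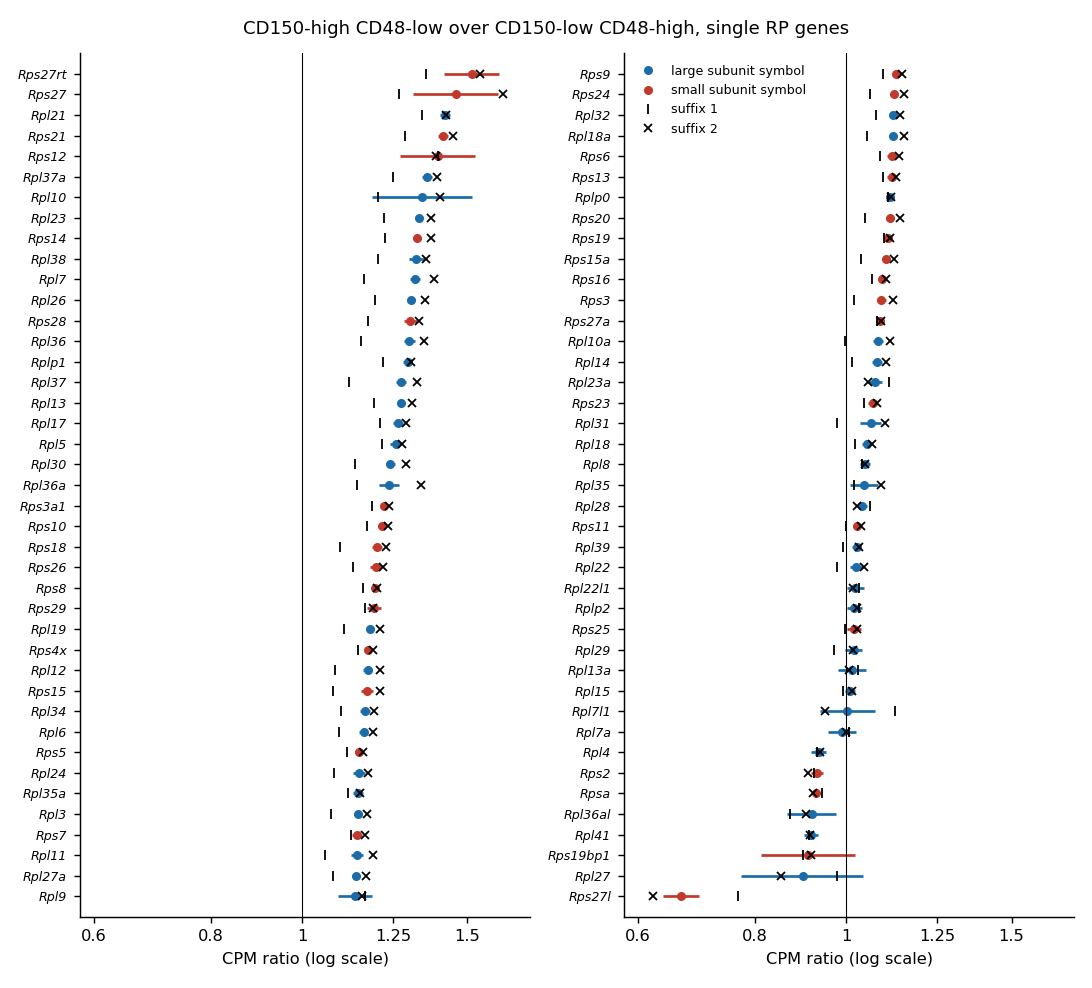
CPM ratio (log scale) of CD150-high CD48-low over CD150-low CD48-high cells for 82 of the 83 ribosomal protein genes at 10 CPM or more, with the pooled ratio and its 95% interval for counting error (circle and line, coloured by subunit) and the ratio in suffix 1 (tick) and suffix 2 (cross). Ratios ran from 0.667 for Rps27l to 1.52 for Rps27rt, and 69 of the 82 were higher with suffix 2.

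The family of Rps27 held both ends of this range. Rps27 encodes a zinc-finger protein of the small subunit, Rps27rt is an intronless copy of it, and Rps27l encodes a near-identical protein whose gene is known to be induced by p53. Rps27l had 309 and 278 CPM in CD150-high CD48-low, 312 and 276 in CD150-low CD48-low, 382 and 329 in CD150-high CD48-high, and 403 and 447 in CD150-low CD48-high cells. Both CD48-low gates were thus below both CD48-high gates in each suffix, and the ratio of CD150-high CD48-low over CD150-low CD48-high was 0.667 (0.638 to 0.698).

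Rps27 and Rps27rt went the other way. Rps27 had 64.4 and 57.1 CPM in CD150-high CD48-low and 50.7 and 34.95 in CD150-low CD48-high cells, a ratio of 1.46 (1.31 to 1.62). Rps27rt had 109 and 151 against 80.3 and 97.6 CPM, a ratio of 1.52 (1.42 to 1.62). The transcripts of these 2 genes, of 458 and 374 bases, had 345 identical bases, which is 70.8% of their alignment with gaps counted. Of the 3′ stretches, 100% of those in Rps27 also occurred in Rps27rt, and 89.2% of those in Rps27rt in Rps27. The split of counts between the 2 genes is therefore uncertain. Rps27rt made up 70.0% of their summed UMIs in CD150-high CD48-low and 69.2% in CD150-low CD48-high cells, so the counted share within the pair was much the same in both gates. It was 62.8% with suffix 1 and 72.6% with suffix 2 in the first gate.

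Of the UMIs of Rps27 and Rps27l together, Rps27l made up 82.8 and 83.0% in CD150-high CD48-low cells (suffix 1 and 2) and 88.8 and 92.7% in CD150-low CD48-high cells. CD150-low CD48-low cells were close to the former with 84.0% over both suffixes, and CD150-high CD48-high cells lay between with 87.0%. Of the 3′ stretches, 100% in Rps27 but 1.49% in Rps27l were shared with other genes. The level of Rps27 is uncertain, so these shares cannot be read as the make-up of the pair. Along the CD48 bins, Rps27l was higher in each bin than in the one before, with 306, 332, 354, 407 and 447 CPM for suffix 1 and 275, 307, 341, 435 and 532 for suffix 2. From the lowest to the highest bin, it went from 293 to 407 and from 274 to 455 CPM when cycling cells were left out. Its gate ratio without cycling cells was 0.791. Rpl21 ran the opposite way along CD48, from 2990 to 2156 CPM with suffix 1 and from 3946 to 2574 with suffix 2.

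**Figure D5:**
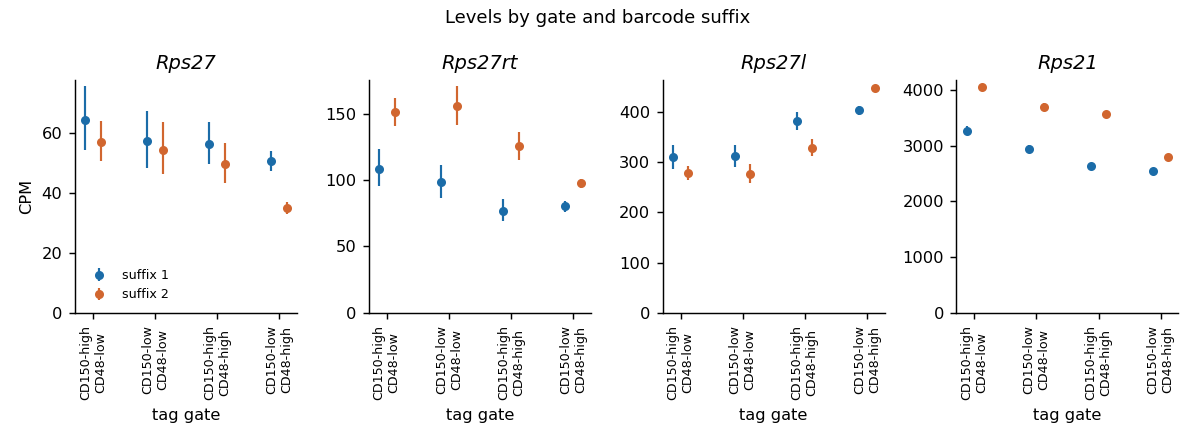
CPM of Rps27, Rps27rt, Rps27l and, for comparison, Rps21 in the 4 tag gates for each suffix, with 95% intervals for counting error and a y axis of its own for each gene. Rps27l was lower in both CD48-low gates than in both CD48-high gates, whereas the other 3 genes were higher in CD150-high CD48-low than in CD150-low CD48-high cells.

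Other pairs of a ribosomal protein gene and its paralog differed less between the gates. Rpl22, which is needed for T cell development and represses its paralog Rpl22l1, had 2320 and 2478 CPM in CD150-high CD48-low and 2372 and 2371 in CD150-low CD48-high cells. Over both suffixes Rpl22l1 made up 36.5% of the UMIs of the pair in either gate, but the suffixes went opposite ways, with 37.4 against 36.1% for suffix 1 and 36.1 against 36.7% for suffix 2. Rpl7l1, which is known from ribosome assembly, was 2.77 against 3.61% of its pair with Rpl7. Its own CPM ratio was 1.003 (0.937 to 1.07), but 1.13 (1.003 to 1.26) with suffix 1 and 0.951 (0.874 to 1.03) with suffix 2. The ratio of Rpl7 was 1.32.

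Rpl36al made up 9.65 and 16.1% of the pair with Rpl36a in CD150-high CD48-low and 12.3 and 22.0% in CD150-low CD48-high cells. Here the suffixes differed by more than the gates. The tissue-restricted paralogs were close to absent: Rpl39l had 5 UMIs in CD150-high CD48-low and 48 in CD150-low CD48-high cells, Rpl3l 0 and 15, and Rpl10l 0 and 3. A count of 0 allows up to 1.33 CPM in the first gate with suffix 1 and 0.570 CPM with suffix 2. Rps4l was not analysed here.

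Genes whose human counterparts are mutated in Diamond-Blackfan anemia, an inherited failure of red cell production, mostly had ratios over 1. With Rps14, the gene of the 5q- syndrome, 13 members are given here, not the whole list, and 12 of them had a ratio over 1 in each suffix of CD150-high CD48-low over CD150-low CD48-high cells, beside 77.1% of all members and 32.1% of all genes. Their median ratio was 1.19, beside 1.13 for all members. The highest were Rps14 at 1.33, Rpl26 at 1.31 and Rps28 at 1.30. Rps19, the gene most often mutated in the disease, had 6536 and 6730 CPM against 5953 and 6050, a ratio of 1.11. Rpl5 and Rpl11, which with 5S rRNA bind Mdm2 and so stabilise p53, had ratios of 1.26 and 1.14. The ratio of Rpl15, 1.01 (0.998 to 1.02), did not differ from 1 beyond counting error.

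Of 9 members with a known additional role, 8 had a ratio over 1 in each suffix, beside the same 77.1% of all members and 32.1% of all genes, with Rpsa as the exception. Rpl38, which supports the translation of Hox mRNAs, had 1570 and 1994 CPM in CD150-high CD48-low and 1303 and 1473 in CD150-low CD48-high cells, a ratio of 1.32. Rps6 had a ratio of 1.12, Rps3, which also acts in DNA repair, of 1.09, and Rps27a, made as a fusion with ubiquitin, of 1.09. The 3 stalk proteins, which recruit elongation factors to the large subunit, differed among themselves: Rplp1 had a ratio of 1.30 (1.28 to 1.31), Rplp0 of 1.11 and Rplp2 of 1.02 (1.002 to 1.04).

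Single members differed less between the other pairs of gates described here. For CD150-low CD48-low over CD150-low CD48-high cells, no member was called higher (background 9.58%) and 1, Rps27l, was called lower (background 14.4%). Over 1 in each suffix were 57 (background 33.4%), and 17 were under 1 (background 43.2%). For CD150-high CD48-high over CD150-low CD48-high cells 0 were called higher (background 5.89%) and 0 lower (background 4.06%), with 24 members over 1 (background 31.9%) and 13 under 1 (background 30.9%) in each suffix. These comparisons share the CD150-low CD48-high cells.

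Between the CD48-low gates, CD150-high over CD150-low, no member was called higher (background 4.1%) or lower (background 4.01%), while 62 were over 1 (background 25.7%) and 4 under 1 in each suffix (background 32.4%). The median log2 difference was 0.08 for the members beside −0.04 for all genes, and the ratio of the summed share was 1.04 in each suffix. Of the summed shares, that of CD150-high CD48-low cells exceeded that of CD150-high CD48-high cells by 3.04 points with suffix 1, more than the 2.64 points over CD150-low CD48-high cells, and by 2.04 points with suffix 2. Over all 8 combinations of gate and suffix, 58 of 83 members had their highest level in CD150-high CD48-low cells with suffix 2, and 41 their lowest in CD150-high CD48-high cells with suffix 1. These extremes were not counted over all genes and cannot be read as particular to the members.

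Genes that share a function with the ribosomal proteins did not all follow them in CD150-high CD48-low over CD150-low CD48-high cells. Fau and Rack1 encode proteins of the ribosome but fall outside the symbol rule, and both had ratios over 1 in each suffix, 1.19 for Fau and 1.09 for Rack1. Of 19 other TOP mRNAs, 10 (52.6%) were over 1 in each suffix, beside 32.1% of all genes, and 7 (36.8%) under 1, beside 47.1%, with a median log2 difference of 0.05 beside −0.10. The elongation factor Eef2 at 1.27, Tpt1 at 1.26 and the host RNA Snhg12 at 1.23 were highest, and Nap1l1 at 0.481, Hnrnpa1 at 0.767 and Npm1 at 0.788 lowest.

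In the same comparison of CD150-high CD48-low over CD150-low CD48-high cells, ribosome biogenesis genes were mostly lower. Of 44, 39 (88.6%) were under 1 in each suffix, beside 47.1% of all genes, and 23 (52.3%) were called lower, beside 19.3% of all genes, and the median log2 difference was −0.43. Nop56, a core protein of the box C/D snoRNPs, had a ratio of 0.539, Nolc1 of 0.576 and Tcof1, a factor of rRNA transcription, of 0.599. Sbds at 1.16, Rrp1 at 0.991 and Surf6 at 0.926 were at the other end, and 1 gene, Sbds, was over 1 in each suffix. The list of 18 RNA polymerase I genes also holds factors such as Ubtf and Rrn3 and Polr2 subunits, which are not particular to this polymerase. These 18 genes were closer to all genes, with 10 (55.6%) under 1 in each suffix, beside 47.1%, 1 (5.56%) over 1, beside 32.1%, and a median of −0.17, beside −0.10. Polr1a, the catalytic subunit of RNA polymerase I, was lowest at 0.715, followed by Polr2k at 0.740 and Ubtf at 0.767. Taf1c and Taf1b at 1.06 and Polr2l at 1.05 were highest, each with an interval across 1.

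Of 27 initiation factors, 22 (81.5%) were under 1 in each suffix, beside 47.1% of all genes, and 3 (11.1%) over 1, beside 32.1%, with a median of −0.26. The helicases Eif4a2 and Eif4a1 stood at opposite ends: Eif4a2 had a ratio of 1.88 and Eif4a1 of 0.646. Eif2s1 had 0.621 and Eif3l 0.682, while Eif4ebp1 had 1.21 and Eif1a 1.08. Among 14 genes of mTORC1 and TOP control, a list that also holds Myc, Max and Mxi1 of the Myc network, 4 (28.6%) were over 1 and 9 (64.3%) under 1, beside 32.1 and 47.1% of all genes, with a median of −0.21. Deptor, an inhibitor of mTOR, was highest at 1.85, followed by Akt1s1 at 1.23 and Mxi1 at 1.07. Myc, which drives ribosome biogenesis, was lowest with 0.806 and 0.387 in the 2 suffixes, followed by Tsc2 at 0.764 and Rheb at 0.768.

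The ribosomal proteins of mitochondria, which translate the respiratory chain genes of mtDNA, were lower as a group. Of 77 tested, 68 (88.3%) were under 1 in each suffix, beside 47.1% of all genes, 26 (33.8%) were called lower, beside 19.3%, and 3 (3.90%) were over 1, beside 32.1%. Their median was −0.34. Mrpl18 at 0.506, Mrpl47 at 0.524 and Mrpl12 at 0.560 were lowest, and Mrpl52 at 1.55, Mrpl23 at 1.22 and Mrpl4 at 1.05 highest. All of these lists share the CPM total with the ribosomal proteins, so that a higher share of one lowers the others.

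Over the 8 combinations of gate and suffix, the genes outside the rule whose CPM was most like the summed ribosomal protein share, among 1347 at 100 CPM or more, were Rack1 (Pearson r = 0.988), Tpt1 (0.987), Eef2 (0.983), Tmem176b (0.980) and H2-D1 (0.980). Tmem176b ran from 459 CPM in CD150-low CD48-high cells with suffix 1 to 967 CPM in CD150-high CD48-low cells with suffix 2. Of the 83 members themselves, 46 had an r over 0.9 with the sum they belong to, 12 had an r under 0, and the median was 0.929. The 8 points come from 2 libraries and are no independent samples.

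In each gate most members had a higher CPM with suffix 2 than with suffix 1: 69 of 83 in CD150-high CD48-low, 71 in CD150-low CD48-low, 70 in CD150-high CD48-high and 59 in CD150-low CD48-high cells. The same count was not made over all genes, so it cannot be read as particular to the members. Of the summed shares, that of CD150-low CD48-high cells, 27.7 and 28.3%, differed least between the suffixes. Some members went the other way, such as Rpl36a with 1147 and 976 CPM and Rps27 with 64.4 and 57.1 CPM in CD150-high CD48-low cells. Library and age cannot be told apart here.

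Markers of other cells differed between the gates. The lymphoid markers Dntt, Flt3 and Il7r summed to 14.7 and 3.61 CPM in CD150-high CD48-low against 711 and 397 in CD150-low CD48-high cells, and the B and plasma cell markers to 42.6 and 124 against 552 and 5040. The T and NK cell markers summed to 16.0 and 3.61 against 131 and 203 CPM. Neutrophil markers were between 4.17 and 12.9 CPM, and monocyte and macrophage markers between 209 and 310, in all 8 combinations. Erythroid markers ranged from 0.396 to 107 CPM, highest in CD150-low CD48-low cells with suffix 2, and megakaryocyte markers from 19.6 to 294 CPM, highest in CD150-high CD48-high cells with suffix 2. The stem cell markers summed to 1237 and 1617 CPM in CD150-high CD48-low, 1431 and 1542 in CD150-low CD48-low, and 783 and 732 in CD150-low CD48-high cells, so that with suffix 1 the sum was highest in CD150-low CD48-low cells. There, Hlf had 653 CPM against 432 in CD150-high CD48-low cells, and Ly6a 432 against 324. With suffix 1, Procr, Mecom, Fgd5, Slamf1, Kit and Vwf were instead higher in CD150-high CD48-low than in CD150-low CD48-low cells. Without the cells of over 5% immunoglobulin UMIs, the ratio of the ribosomal protein share was 1.14. With these cells left out, the same 5 members were called higher (background 11.6%) and 1 lower (background 19.4%). The part of the other cell types in the results was not tested.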

How the data were processed

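LSK cells of pooled young and old mice were profiled by CITE-seq with the 10x 3′ v3 chemistry, 1 library per age. According to the submitters' processing notes, the authors counted reads with Cell Ranger 3.1.0 on mm10 (GRCm38) and, per the study's methods, normalized the datasets with its aggr step, and the deposited values are whole UMI counts per gene and cell. The mode of aggr is not given in the sources used here. Its scaling by read depth would lower the counts of the deeper library. Tag counts were deposited by the authors on a log10 scale and were turned back into counts. Doublets were not removed here.

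UMIs were summed over cells for each gate and suffix with Python 3.11.15, numpy 2.4.6, scipy 1.17.1 and pandas 2.3.3, and drawn with matplotlib 3.10.9. A member was called where its CPM was at least 25% higher, or at most 0.8 times as high, in each suffix, at 10 CPM or more. Shares have exact Clopper-Pearson, sums exact Poisson and ratios exact conditional binomial 95% intervals. UMIs are molecules of cells that are not independent replicates, so these intervals cover counting error only. Limits for a count of 0 use 3 counts.

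Members, lists and rules were chosen with earlier results of these data known. Named were the 8 highest and 8 lowest ratios that went the same way in both suffixes, 8 pairs of paralogs, genes of Diamond-Blackfan anemia and the 5q- syndrome, genes with an additional role, and 3 genes at each end of the other lists, each fixed by rule. The pair of Rps27 and Rps27rt, genes with shared 3′ sequence and members over the CD48 bins were added after their values were seen. Start sequences come from RefSeq (GRCm38.p6), without entries for some members. Entries on chromosome 18, where Rps14 and Rpl17 lie, were left out. The steps were tested on simulated data, and 18 other settings were tried, 2 of which (each suffix alone) and the count of ratios over 1 were chosen after seeing the data. Depth was 13334, 11556, 16660 and 16343 median UMIs per cell in CD150-high CD48-low, CD150-low CD48-low, CD150-high CD48-high and CD150-low CD48-high cells. Values of some single genes of the lists are not reported here.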

Additional observations from a re-analysis of the deposited data

Results flagged for a closer look

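Some effects under the same contrast went opposite ways in the 2 suffixes, and these differences were not tested. The ribosomal protein share of CD150-high CD48-high minus that of CD150-low CD48-high cells was −0.403 percentage points with suffix 1 and 2.69 points with suffix 2. Cycling cells made up 43.5% of the CD150-high CD48-high cells with suffix 1 and 13.3% with suffix 2, and without them the ratio of the shares was 1.01 and 1.07. Within CD150-high CD48-low cells, those with a CLCA3A1 tag above the median minus the others differed by 0.8 points with suffix 1 and by −0.481 points with suffix 2, where the median was 25 tags in suffix 1 and 214 in suffix 2. The cell spread in this gate had an SD of 3.05 and 3.01 points. Without cycling cells, the share ratio of CD150-low CD48-low over CD150-low CD48-high cells was 0.997 with suffix 1 and 1.07 with suffix 2. Of single members, 10 of 83 went opposite ways in CD150-high CD48-low over CD150-low CD48-high cells, such as Rpl7l1 at 1.13 and 0.951 and Rpl22 at 0.978 and 1.05.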

How the results depend on the processing

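The ratio of the ribosomal protein share, 1.15 as reported, stayed above 1 in all 13 other settings that apply to it. It was 1.13 without a cell filter, 1.08 with over 2500 genes and under 5% mt- UMIs, 1.11 with both tags split at the median, 1.14 with 90th and 10th percentile gates, 1.12 with equal weight per cell, 1.13 as the mean of the suffixes, 1.14 without immunoglobulin cells, 1.13 without the highest 5% of UMIs, 1.09 without cycling cells, 1.12 thinned to 9000 UMIs, 1.24 relative to the UMIs of other genes, and 1.095 and 1.17 in suffix 1 and 2 alone. The 5 members called higher became 0 with the strict filter, 3 with the median split, 12 with the 90th and 10th percentile gates, 2 without cycling cells, 16 relative to UMIs of other genes, 11 relative to the median gene, 2 at 100 CPM or more, 34 and 0 at a fold of 1.1 and 1.5, and 21 in suffix 2 alone. Beside 6.02% of members and 11.8% of all genes as reported, the called shares were 14.5 and 10.97% with the 90th and 10th percentile gates, 19.3 and 16.0% relative to UMIs of other genes, 40.96 and 21.5% at a fold of 1.1 and 25.3 and 18.0% in suffix 2 alone, so that the order of both shares turned. The 1 called lower became 0 with the strict filter (background 10.4%), without cycling cells (11.7%), when thinned (16.8%), relative to UMIs of other genes (14.8%) and at a fold of 1.5 (9.19%), and 2 at a fold of 1.1 (33.6%). The 64 with ratios over 1 in each suffix became 25 with the strict filter. The strict filter left 20 and 37 CD150-high CD48-low cells, and the 90th and 10th percentile gates 54 and 61. Where values moved, the cause was not tested. All genes called higher and lower numbered 990 and 1624 as reported, 1221 and 854 with the strict filter, and 1346 and 1241 relative to UMIs of other genes.

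In percentage points of CD150-high CD48-low minus CD150-low CD48-high cells, Rpl7l1 went from −0.841 to −0.426 with the strict filter, −0.633 with the median split, −0.593 with the 90th and 10th percentile gates, −0.514 without cycling cells and −0.114 and −1.08 in suffix 1 and 2. Rpl22l1 went from −0.0456 to 3.74 with the strict filter, 1.09 with the median split, 1.85 without cycling cells and 1.23 in suffix 1. Rpl36al went from −3.99 to −5.00 with the median split, −3.05 without cycling cells and −2.63 and −5.96 in suffix 1 and 2. Rps27l went from −8.47 to −3.12 with the strict filter, −5.05 without cycling cells and −6.05 in suffix 1. The share of Rps27l rests on the uncertain level of Rps27. Of 546 values of 42 single genes, 228 stayed within counting error. Of all 546, 28 lay on the other side of 1 from the value as reported, and among the 6 called genes 1 did, Rps12 at 0.848 with the strict filter. No paired test was run, as no result comes from a test. The gates were compared within each of the 2 libraries, as the values by suffix. Depth limits the members under 100 CPM most, and UMI counts do not show the size of a cell.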
